A study of Mus musculus with 3 samples.

Results

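The genes described here carry retinoic acid (RA) through the cell, from uptake of its precursor to degradation, and were chosen by name: Stra6, Rdh10, Dhrs3, Aldh1a2, Crabp1, Crabp2, Rarb, Rarg and Cyp26a1. They are 9 of the 55487 genes in the table, and all 9 were among the 17655 that reached 10 counts in 1 library or more. Their mRNA levels were measured by RNA-seq in embryoid bodies (EBs), aggregates of differentiating embryonic stem (ES) cells in which the first lineages form in culture. The study asked what C2 ceramide, a ceramide with a short acyl chain that can cross into cells, does to gene expression while the EBs pass through a stage like the primitive streak (PrS), the structure of the early embryo that gives rise to mesoderm and endoderm. There were 3 libraries, 1 per condition: EBs on day 4 given 30 µM C2 ceramide from the start of day 3, EBs on day 4 given the DMSO vehicle, and EBs on day 3 given DMSO. The sample labels call the DMSO EBs controls, and the name DMSO comes from the column headings and the study's methods. All 3 came from wild-type E14K ES cells, a single line, cultured in hanging drops and then in suspension in a serum medium without LIF.

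RA is made from vitamin A (retinol) in steps: retinol is oxidised to retinal, retinal is oxidised to RA, and RA enters the nucleus and binds RAR receptors paired with RXR partners on DNA. Cells that receive RA often make the enzymes that destroy it, and the mouse embryo uses this balance of synthesis and degradation to keep RA out of some regions and to pattern others along the head-to-tail axis. RAR and RXR pairs bind direct repeats of a short core sequence, and the repeat with a spacer of 5 bases (DR5) is the classical RA response element.

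With C2 ceramide on day 4, Crabp2 and Rarg were more than 2-fold higher than in DMSO EBs on day 4, and Cyp26a1, Crabp1, Rarb and Stra6 were more than 2-fold lower. Cyp26a1 differed the most, with 10.3 TPM (transcripts per 1000000) in C2 ceramide EBs, against 444 TPM in DMSO EBs on day 4 and 1.29 TPM on day 3. The 2 genes for cytosolic RA-binding proteins differed in opposite directions. Of the 9 genes, the 4 that act before RA is formed or bound (Stra6, Rdh10, Dhrs3 and Aldh1a2) had between 0.228 and 9.18 TPM in the 3 libraries.

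Of the 9 genes, 7 had a promoter window in the RefSeq table for GRCm38.p6, which gives 250 bases before and 50 bases after each start site, in 13 windows. Crabp2 and Rdh10 had none. The core of 6 bases was searched as AGTTCA, and likewise as AGGTCA, and likewise as GGTTCA, and likewise as GGGTCA, on both strands, alone and as direct repeats with a spacer of 1 base (DR1), 2 bases (DR2) or 5 bases (DR5). A DR5 match was present in 2 of the 13 windows, those of Cyp26a1 and Rarb, and no window held a DR1 or DR2 match. Among all 32851 windows in the table, 0.0974% held a DR5 match, 0.222% a DR1 match, 0.268% a DR2 match and 43.7% at least 1 core, so that the core alone is common and DR5 is rare. The Cyp26a1 match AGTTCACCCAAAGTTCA lay on the strand opposite to the gene, at positions -32 to -16, where 1 is the first transcribed base of the RefSeq start and -1 the base before it. The Rarb match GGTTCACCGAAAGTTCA lay on the gene's own strand, at positions -53 to -37. The 250 bases before each of these starts are printed because they hold the DR5 matches. The third, the downstream start of Rarg, is the start of the transcript that held most of that gene's TPM, and it is shown as a receptor promoter with no match. Crabp1 and Stra6, which like Cyp26a1 and Rarb were lower in C2 ceramide EBs than in DMSO EBs on day 4, had no DR5 match, and no relation between a match and the direction of a difference was tested. Capitals mark the DR5 match, and each sequence runs 5′ to 3′ along the gene's strand, at chr19:37697558-37697807 (plus) for Cyp26a1, chr14:16575477-16575726 (minus) for Rarb and chr15:102246501-102246750 (minus) for Rarg in GRCm38.p6.
Cyp26a1: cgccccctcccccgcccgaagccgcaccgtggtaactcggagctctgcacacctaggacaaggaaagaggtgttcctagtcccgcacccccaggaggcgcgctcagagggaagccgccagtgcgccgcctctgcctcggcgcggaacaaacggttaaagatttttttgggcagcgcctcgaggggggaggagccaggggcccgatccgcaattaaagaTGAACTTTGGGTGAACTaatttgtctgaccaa
Rarb: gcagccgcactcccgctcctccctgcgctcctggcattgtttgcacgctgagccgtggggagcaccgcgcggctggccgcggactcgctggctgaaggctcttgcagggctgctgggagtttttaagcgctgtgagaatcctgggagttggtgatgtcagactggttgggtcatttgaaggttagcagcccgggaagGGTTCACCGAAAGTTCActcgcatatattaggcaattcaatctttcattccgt
Rarg: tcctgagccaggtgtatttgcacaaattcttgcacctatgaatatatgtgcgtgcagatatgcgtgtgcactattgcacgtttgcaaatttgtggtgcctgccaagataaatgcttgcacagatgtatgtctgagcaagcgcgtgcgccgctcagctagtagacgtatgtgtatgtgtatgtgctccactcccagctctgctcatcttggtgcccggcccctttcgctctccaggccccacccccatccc

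A single core was found in 1 other Rarg window and 1 Stra6 window, at positions -225 to -220 of the upstream Rarg start and 16 to 21 of the third Stra6 start counted along the gene. The windows of Aldh1a2, Crabp1 and Dhrs3 held none of these cores. A match is a description of the letters and not evidence that a receptor binds there, and these windows do not cover distant elements. The main Cyp26a1 transcript of the deposited table begins 10 bases before the RefSeq start and the main Rarb transcript 67 bases before it, so that the Rarb match lies inside that transcript.

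**Figure D1:**
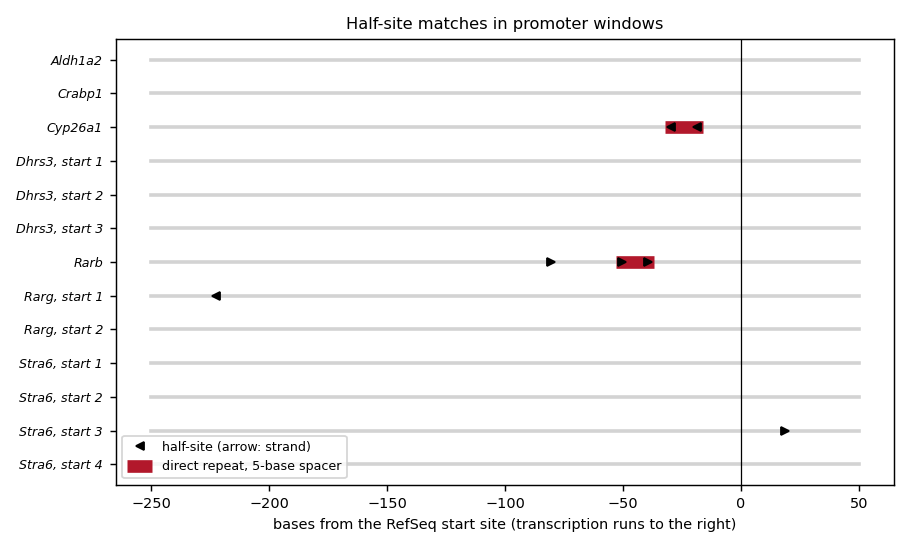
Positions of core matches (arrowheads, pointing along their strand; the legend calls a core a half-site) and DR5 matches (red blocks) in the 13 promoter windows, with bases from the RefSeq start on the x axis and starts numbered along the gene. Red blocks stand only in Cyp26a1 and Rarb, where they begin at positions -32 and -53.

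The libraries were of similar depth, with 35290094 estimated counts for C2 ceramide day 4, 35078820 for DMSO day 4 and 33619197 for DMSO day 3. A ratio was called higher above 2-fold and lower below 0.5-fold, as the study did. Ratios are given as log2 with the exact 95% interval of their counts, which covers counting error only and treats PCR copies as separate molecules. With 1 library per condition there is no measure of the spread between cultures, so no test was made and no p-value is given. Pluripotent and epiblast markers were present in all libraries, with summed levels of 9548 TPM in C2 ceramide EBs, 5253 TPM in DMSO EBs on day 4 and 9095 TPM on day 3. Most of this was Dppa5a, with 7352, 3735 and 6353 TPM, and of the 7 markers 2 were called higher and 1, Fgf5, lower with C2 ceramide than with DMSO at day 4. The 5 PrS and mesoderm markers summed to 27.7, 417 and 32.1 TPM in the same libraries, and the 5 anterior endoderm and node markers to 6.87, 683 and 8.83 TPM. Neuroectoderm markers were low in all 3, with sums of 23.0, 20.5 and 11.8 TPM, of which Nes made up most. Sox1 had 0.524 TPM (66 counts) with C2 ceramide and was at 0 in both DMSO libraries. Set against 3 counts for DMSO day 4, Sox1 was 21.9-fold higher with C2 ceramide. Pax6 was 2.14-fold higher with C2 ceramide than with DMSO at day 4, from 66 against 23 counts. Its log2 ratio for C2 ceramide day 4 over DMSO day 3 was 0.32 (-0.26 to 0.91). Hoxb1, of the same list, was lower with C2 ceramide than with DMSO at day 4, at 0.863 against 5.17 TPM. In such bulk samples, fewer cells of a type and less mRNA per cell cannot be told apart.

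Between C2 ceramide and DMSO on day 4, 2 of the 9 genes were higher, against 9.97% of the 17655 genes, and 4 were lower, against 12.3% of all. Between day 4 and day 3 of DMSO, 4 were higher (Cyp26a1, Crabp1, Aldh1a2 and Rarb), against 12.8% of all genes, and 2 were lower (Crabp2 and Rarg), against 9.45%. Between C2 ceramide on day 4 and DMSO on day 3, 4 were higher (Cyp26a1, Crabp2, Aldh1a2 and Rarb), against 11.2%, and only Stra6 was lower, against 9.39%. The median log2 ratio of the 9 genes was -0.12, 0.73 and 0.94 in these 3 comparisons, beside -0.03, 0.05 and 0.03 over all 17655. The comparisons share libraries, so they are not independent of each other.

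**Figure D2:**
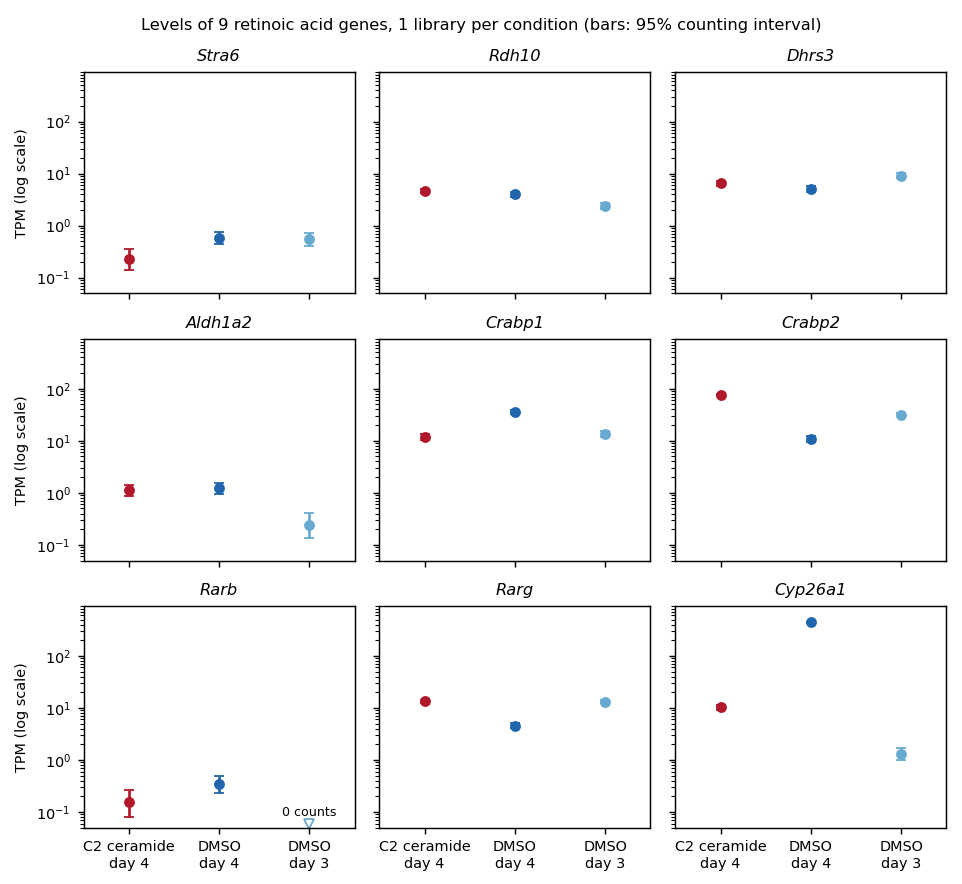
TPM of each of the 9 genes (log axis) in C2 ceramide day 4, DMSO day 4 and DMSO day 3 EBs, 1 library each, with the 95% counting interval of each level. Cyp26a1 is at 10.3, 444 and 1.29 TPM, Crabp2 and Rarg are lowest in DMSO day 4 EBs, and Rarb has 0 counts in DMSO day 3 EBs.

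In the uptake step, Stra6, the membrane receptor that takes up retinol from its carrier protein in blood (chr9:58063788-58153996, plus strand, GRCm38), had 0.228 TPM in C2 ceramide EBs, 0.587 TPM in DMSO EBs on day 4 and 0.551 TPM in DMSO EBs on day 3. The C2 ceramide library was the low one, and the DMSO libraries lay close together. The log2 ratio was -1.36 (-2.18 to -0.60) for C2 ceramide over DMSO at day 4, -1.27 (-2.11 to -0.49) for C2 ceramide over DMSO day 3, and 0.09 (-0.50 to 0.69) for DMSO day 4 over day 3. These values rest on 20, 53 and 47 counts. With 1 TPM added to each level, the first ratio became -0.37. The gene's span overlaps Ccdc33 on the opposite strand over 55036 bases at its 5′ end, up to position 58118823, and the 3 transcripts that carried nearly all Stra6 counts start downstream of that overlap.

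The transcripts assigned to Stra6 also differed between libraries. The transcript starting at 58129349 had 0.129 TPM in C2 ceramide EBs, 0.278 TPM in DMSO EBs on day 4 and 0.531 TPM in DMSO EBs on day 3. The one starting at 58134075 was listed only on DMSO day 4, at 0.309 TPM, and the one starting at 58134665 only with C2 ceramide, at 0.0990 TPM. Each of these rests on fewer than 50 estimated counts.

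Rdh10, the dehydrogenase that oxidises retinol to retinal in the embryo (chr1:16105774-16133734, plus strand), had 4.60 TPM in C2 ceramide EBs, 4.00 TPM in DMSO EBs on day 4 and 2.40 TPM in DMSO EBs on day 3. Its log2 ratio was 0.94 (0.69 to 1.18) for C2 ceramide day 4 over DMSO day 3 and 0.73 (0.49 to 0.98) for DMSO day 4 over day 3, both under the 2-fold threshold. Between C2 ceramide and DMSO on day 4 it was 0.20, with an interval that reached 0 at its lower end and 0.41 at its upper end. Both day 4 libraries were thus above the day 3 library, by less than 2-fold. With coding transcripts only, the log2 ratio for C2 ceramide day 4 over DMSO day 3 was 1.08, just past 2-fold.

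Dhrs3, a reductase that turns retinal back to retinol and works in partnership with RDH10 (chr4:144892827-144928209, plus strand), had 6.48 TPM in C2 ceramide EBs, 5.16 TPM in DMSO EBs on day 4 and 9.18 TPM in DMSO EBs on day 3. Here the day 3 library was the highest, with a log2 ratio of -0.83 (-1.08 to -0.59) for DMSO day 4 over day 3 and -0.50 (-0.73 to -0.27) for C2 ceramide day 4 over DMSO day 3. Comparing both treatments on day 4 gave 0.33 (0.07 to 0.59), and none of the 3 passed 2-fold. The TPM ratio of Dhrs3 to Rdh10 was 1.41 (1.21 to 1.64) in C2 ceramide EBs, 1.29 (1.09 to 1.53) in DMSO EBs on day 4 and 3.82 (3.22 to 4.55) in DMSO EBs on day 3, so the pair stood nearer to equal levels in both day 4 libraries.

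Within Dhrs3, the 1349-base coding transcript held 57.3% of the gene's TPM in C2 ceramide EBs, 47.7% in DMSO EBs on day 4 and 60.1% in DMSO EBs on day 3. A transcript annotated for nonsense-mediated decay held 28.3%, 13.0% and 18.0% in the same libraries, and the 2337-base coding transcript 11.4%, 26.2% and 17.9%. The decay transcript rests on 89.7, 32.5 and 77.8 estimated counts, divided from the gene's reads among 7 transcripts.

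Aldh1a2, the retinaldehyde dehydrogenase that makes most RA in the early mouse embryo (chr9:71215789-71296243, plus strand), had 1.13 TPM in C2 ceramide EBs, 1.23 TPM in DMSO EBs on day 4 and 0.245 TPM in DMSO EBs on day 3, from 72, 77 and 15 counts. The day 3 library was the low one. Both day 4 libraries were higher, with a log2 ratio of 2.21 (1.39 to 3.12) for C2 ceramide and 2.33 (1.52 to 3.23) for DMSO over DMSO day 3. With 1 TPM added to each level these became 0.78 and 0.84, under 2-fold. The difference between C2 ceramide and DMSO on day 4 was -0.12 (-0.60 to 0.37), an interval that reaches to both sides of 0. Aldh1a2 took 70.3% of the summed TPM of Aldh1a1, Aldh1a2 and Aldh1a3 in C2 ceramide EBs and 68.5% in DMSO EBs on day 4, against 24.1% on day 3, when Aldh1a3 held 70.3%. Aldh1a3 itself had 0.460, 0.527 and 0.715 TPM in these libraries, and its levels differed by less than 2-fold.

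**Figure D3:**
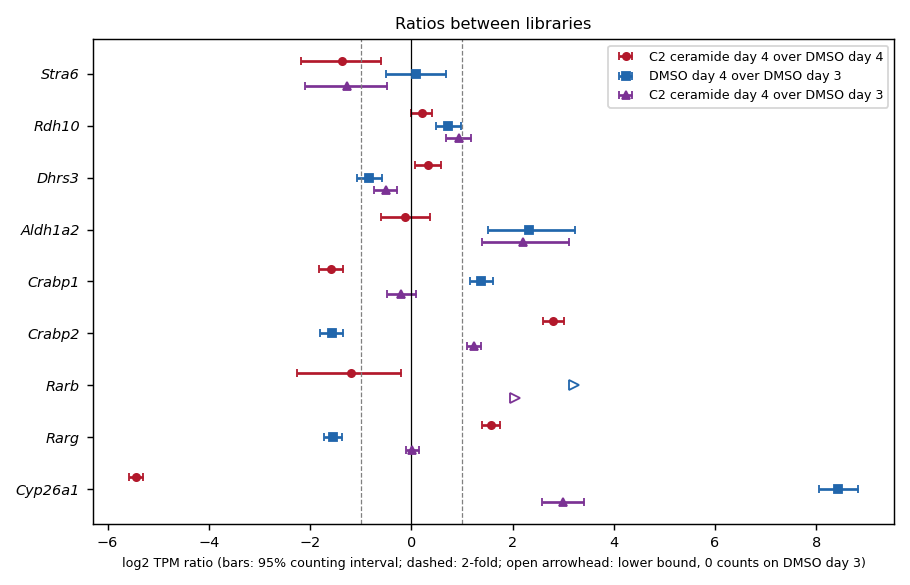
Log2 TPM ratios of the 9 genes (x axis) for 3 comparisons of 1 library each, with 95% counting intervals, dashed lines at 2-fold and open arrowheads for Rarb over DMSO day 3. The arrowheads are set against 3 counts on DMSO day 3 and leave out the counting error of the day 4 level, though the axis label calls them lower bounds. Aldh1a2 lies near 0 between C2 ceramide and DMSO on day 4, at -0.12, while Cyp26a1 lies at -5.44 and Crabp2 at 2.80.

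The cytosolic RA-binding proteins have unlike roles: CRABP2 carries RA to nuclear receptors, and CRABP1 holds RA in the cytosol and is linked to its degradation. Crabp1 (chr9:54764748-54773110, plus strand) had 11.9 TPM in C2 ceramide EBs, 35.5 TPM in DMSO EBs on day 4 and 13.6 TPM in DMSO EBs on day 3. It was high only in the DMSO day 4 library, with a log2 ratio of -1.58 (-1.82 to -1.34) for C2 ceramide over DMSO at day 4 and 1.38 (1.15 to 1.61) for DMSO day 4 over day 3. C2 ceramide day 4 over DMSO day 3 gave -0.20 (-0.49 to 0.09).

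Crabp2 (chr3:87948666-87953376, plus strand) had 74.7 TPM in C2 ceramide EBs, 10.7 TPM in DMSO EBs on day 4 and 31.8 TPM in DMSO EBs on day 3, from 1535, 217 and 626 counts. The order of the libraries was the reverse of that of Crabp1, with DMSO day 4 the lowest. C2 ceramide EBs were 6.95-fold higher than DMSO EBs on day 4, the seventh highest ratio among the 8238 genes with at least 10 TPM in either library, and 2.35-fold higher than DMSO EBs on day 3. DMSO day 4 over day 3 gave a log2 ratio of -1.57 (-1.80 to -1.34), the 29th lowest of 8179 such genes.

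Crabp2 made up 86.3% of the summed TPM of the pair in C2 ceramide EBs, against 23.2% in DMSO EBs on day 4 and 70.0% in DMSO EBs on day 3. The TPM ratio of Crabp2 to Crabp1 was 6.30 (5.42 to 7.35) in C2 ceramide EBs, 0.303 (0.258 to 0.355) in DMSO EBs on day 4 and 2.33 (2.00 to 2.74) in DMSO EBs on day 3. The pair was thus turned round in the DMSO day 4 library alone, where Crabp1 was the more abundant. The summed level was 86.5 TPM with C2 ceramide, against 46.2 TPM with DMSO on day 4 and 45.4 TPM on day 3, so that the sum was alike in the DMSO libraries while its make-up was not. Fabp5, which can carry RA to another nuclear receptor, had 212, 285 and 209 TPM and no 2-fold difference.

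Among the receptors, Rarg (chr15:102234938-102257517, minus strand) had 13.5 TPM in C2 ceramide EBs, 4.55 TPM in DMSO EBs on day 4 and 13.3 TPM in DMSO EBs on day 3. The DMSO day 4 library was the low one, and the other libraries were alike. The log2 ratio was 1.56 (1.39 to 1.74) for C2 ceramide over DMSO at day 4 and -1.55 (-1.73 to -1.37) for DMSO day 4 over day 3. This placed Rarg 64th from the highest of 8238 genes and 30th from the lowest of 8179. These rankings took genes with at least 10 TPM in either library, and Rarg entered them only through the library where it was higher. C2 ceramide day 4 over DMSO day 3 gave 0.02 (-0.12 to 0.15), and this ratio was slightly negative in counts scaled by the library total (CPM), at -0.07.

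The deposited transcripts of Rarg include an upstream and a downstream start. The transcript from the downstream start at 102246500 had 10.6 TPM in C2 ceramide EBs, 4.06 TPM in DMSO EBs on day 4 and 11.5 TPM in DMSO EBs on day 3, or 78.6%, 89.1% and 86.6% of the gene. The longest transcript, from the upstream start at 102257517, stayed below 1 TPM, at 0.777, 0.496 and 0.492 TPM. A 934-base transcript from near the upstream start had 2.10 TPM with C2 ceramide, 0 with DMSO on day 4 and 1.07 TPM on day 3. It rests on 42.2, 0 and 20.6 estimated counts. In CPM, which does not use transcript length, the log2 ratio of the whole gene between C2 ceramide and DMSO on day 4 was 1.38.

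Rarb, a receptor gene that RA itself induces through the DR5 element of its promoter (chr14:16430839-16819156, minus strand), had 0.153 TPM in C2 ceramide EBs and 0.350 TPM in DMSO EBs on day 4, and 0 counts in DMSO EBs on day 3. These levels rest on 13.2 and 29.4 estimated counts. It was called lower in C2 ceramide EBs than in DMSO EBs on day 4, with a log2 ratio of -1.19 (-2.26 to -0.20), an interval that reaches well inside 2-fold. The call was lost with 0.1 TPM added to each level, at -0.83, and with 1 TPM added, at -0.23, and the gene does not reach a filter of 50 counts. Set against a limit of 3 counts for the day 3 library, the level was 9.26-fold higher in DMSO EBs on day 4 and 4.13-fold higher in C2 ceramide EBs. These folds leave out the counting error of the day 4 levels. The 3′ part of Rarb overlaps Top2b on the opposite strand over 4624 bases, and Top2b had 2746 estimated counts in C2 ceramide EBs, 3067 in DMSO EBs on day 4 and 2041 in DMSO EBs on day 3. How many of the few reads counted for Rarb came from that overlap was not tested.

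Rara, the broadly expressed RAR, took the largest share of RAR transcripts in each library. It had 17.7 TPM in C2 ceramide EBs, 15.7 TPM in DMSO EBs on day 4 and 17.2 TPM in DMSO EBs on day 3, or 56.5%, 76.2% and 56.4% of the summed RAR level. Rarg held 43.0%, 22.1% and 43.6%. The sum was 31.3 TPM with C2 ceramide, against 20.6 TPM with DMSO on day 4 and 30.5 TPM on day 3. Of the RXR partners, Rxrb was the most abundant, with 42.4, 45.2 and 44.2 TPM. Rxrg was high in the DMSO day 4 library, with 3.23 TPM in C2 ceramide EBs, 12.0 TPM in DMSO EBs on day 4 and 2.69 TPM in DMSO EBs on day 3, and its log2 ratio was -1.89 (-2.13 to -1.66) for C2 ceramide over DMSO at day 4. Rarg and Rxrg thus differed in opposite directions.

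**Figure D4:**
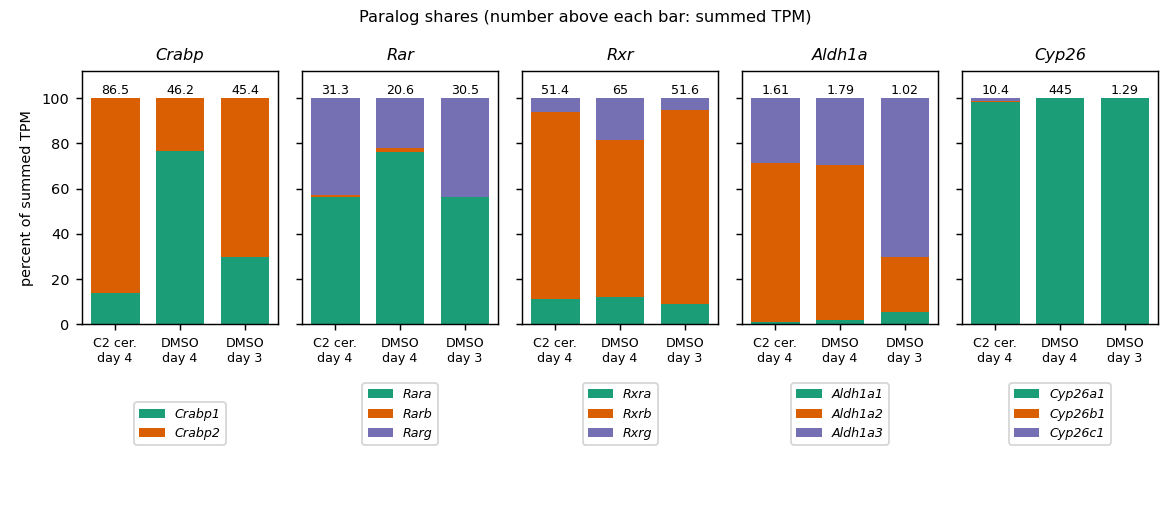
Share of each paralog in the summed TPM of its family (y axis, percent) in C2 ceramide day 4, DMSO day 4 and DMSO day 3 EBs, with the summed TPM above each bar. Crabp2 makes up 86.3%, 23.2% and 70.0% of its pair, and Cyp26a1 at least 98.4% of its family in every library.

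Cyp26a1, the cytochrome P450 that oxidises and so inactivates RA (chr19:37697798-37701536, plus strand), had 10.3 TPM in C2 ceramide EBs, 444 TPM in DMSO EBs on day 4 and 1.29 TPM in DMSO EBs on day 3, from 443, 19533 and 58 counts. The order was DMSO day 4, then C2 ceramide, then DMSO day 3, with no overlap of the counting intervals. The C2 ceramide library held 2.31% of the DMSO day 4 level, a log2 ratio of -5.44 (-5.58 to -5.30) that was 14th from the lowest among 8238 genes. It was 7.93-fold above DMSO day 3, the sixth highest ratio of 8065 genes, with a log2 ratio of 2.99 (2.59 to 3.41). DMSO day 4 over day 3 gave 8.42 (8.05 to 8.82), the tenth highest of 8179. Cyp26a1 entered these rankings over DMSO day 3 only through its day 4 level, which with C2 ceramide was 10.3 TPM against the required 10. Genes under 10 TPM in both libraries were not ranked, such as Kdr, 56.7-fold higher with C2 ceramide than on DMSO day 3. The gene ranked 388th by TPM in the DMSO day 4 library, against 7664th with C2 ceramide and 12843rd on DMSO day 3.

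The coding transcript held 91.1% of the Cyp26a1 TPM in C2 ceramide EBs, 94.2% in DMSO EBs on day 4 and 100% in DMSO EBs on day 3, the rest being a retained-intron form. Its paralogs were scarce. Cyp26b1 had 1 count in C2 ceramide EBs and 0 in both DMSO libraries, and Cyp26c1 had 7, 12 and 0 counts. Set against Aldh1a2 alone, the TPM ratio of Cyp26a1 was 9.05 (7.04 to 11.8) in C2 ceramide EBs, 362 (289 to 458) in DMSO EBs on day 4 and 5.28 (2.95 to 10.0) in DMSO EBs on day 3. On DMSO day 3, Aldh1a3 held 70.3% of the summed Aldh1a TPM, so the ratio leaves out most of that family there. The summed Aldh1a level was 1.61 TPM with C2 ceramide, 1.79 TPM with DMSO on day 4 and 1.02 TPM on day 3. The ratio to Aldh1a2 was high in DMSO day 4 EBs alone, where Cyp26a1 was highest. Aldh1a2 itself differed little between the day 4 libraries and was 5.02-fold higher on DMSO day 4 than on day 3.

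Markers of the PrS and of anterior endoderm also differed between the libraries. All 5 PrS and mesoderm markers and all 5 anterior endoderm and node markers were called higher on DMSO day 4 than on day 3, and 5 and 4 of them were called lower in C2 ceramide EBs than in DMSO EBs on day 4. Between C2 ceramide on day 4 and DMSO on day 3, where Cyp26a1 was 7.93-fold higher, each of these lists had 3 markers higher, 1 lower and 1 within 2-fold, the lower ones being Eomes and Foxa2, and both summed levels were slightly lower with C2 ceramide. Brachyury (T) had 9.47 TPM in C2 ceramide EBs, 110 TPM in DMSO EBs on day 4 and 3.39 TPM in DMSO EBs on day 3, and Cer1, an anterior endoderm marker, had 0.564, 331 and 0.0230 TPM. Visceral endoderm markers summed to 4.18, 14.9 and 3.57 TPM, with Rbp4 the most abundant at 1.85, 11.4 and 1.98 TPM. Trophoblast markers summed to 4.95, 15.9 and 1.55 TPM. Fibroblast markers summed to 9.55, 3.15 and 2.24 TPM, and blood and endothelial markers to 13.1, 19.3 and 10.4 TPM, with Noto, Postn and Elf5 at 0 on DMSO day 3 and Zic1 at 0 with C2 ceramide. Of all genes, 9.97% were higher and 12.3% lower with C2 ceramide than with DMSO at day 4. Visceral endoderm had 4 of 6 markers lower and none higher, of which Ttr rests on 5 against 10 counts, Apoa1 on 4 against 16 and Apob on 7 against 23. Trophoblast had 2 lower, Cdx2 and Hand1, and none higher of the 3 that passed the filter, which Elf5 did not. The fibroblast, blood and neuroectoderm lists had 2 higher and 1 lower each. In the blood list Kdr was lower, and Tal1 (20 against 6 counts) and Pecam1 were higher. The lower neuroectoderm marker was Hoxb1, and Zic1 did not pass the filter. The part of such cells in the levels of the RA genes was not tested.

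Likeness was measured as the distance between the pairs of log2 ratios (DMSO day 4 over day 3 and C2 ceramide over DMSO on day 4) over 7791 genes, a description over 3 libraries. Nearest to Cyp26a1 were Gata6, an endoderm and mesoderm transcription factor, at a distance of 0.37, Dkk1, a secreted Wnt antagonist, at 0.92, and Aplnr, the apelin receptor, at 1.10. Gata6 had 0.775 TPM in C2 ceramide EBs, 37.7 TPM in DMSO EBs on day 4 and 0.0870 TPM in DMSO EBs on day 3. Nearest to Crabp2 were Gap43, a growth cone protein, at 0.04, Vax2, a homeobox factor of the eye and forebrain, at 0.51, and Spp1, the secreted protein osteopontin, at 0.78. Gap43 had 27.7, 3.97 and 12.1 TPM, the order of libraries seen for Crabp2. Nearest to Crabp1 were Emb, a cell adhesion glycoprotein, at 0.05, and Lef1, a transcription factor of the Wnt pathway, and Phldb2, a protein that anchors microtubules at the cell cortex, both at 0.14.

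The levels can be put in order within each library, since TPM is scaled by length. In C2 ceramide EBs, Crabp2 came first, followed by Rarg, Crabp1, Cyp26a1, Dhrs3, Rdh10, Aldh1a2, Stra6 and Rarb. There the counting intervals of Rarg and Crabp1, of Crabp1 and Cyp26a1, and of Stra6 and Rarb overlapped. In DMSO EBs on day 4, the order was Cyp26a1, Crabp1, Crabp2, Dhrs3, Rarg, Rdh10, Aldh1a2, Stra6 and Rarb, with overlap between Dhrs3 and Rarg, Rarg and Rdh10, and Stra6 and Rarb. In DMSO EBs on day 3, the order was Crabp2, Crabp1, Rarg, Dhrs3, Rdh10, Cyp26a1, Stra6, Aldh1a2 and Rarb, with overlap between Crabp1 and Rarg.

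A further 51 genes of the RA pathway were examined, of which 32 reached 10 counts in 1 library or more and 8 had 0 counts in all 3. Between C2 ceramide and DMSO on day 4, 2 of the 32 were higher (Ncoa1 and Nr2f2) and 7 were lower (Rbp4, Ttr, Rdh11, Dhrs9, Rxrg, Hoxb1 and Cdx1), which is 6.25% and 21.9%, against 9.97% and 12.3% of all genes. Between DMSO day 4 and day 3, 7 were higher and 2, Rbp7 and Nr2f2, were lower, or 21.9% and 6.25%, against 12.8% and 9.45% of all. The Nr2f2 call rests on 4 counts on DMSO day 4 against 5 on day 3 and was lost under CPM, TMM and DESeq2 scaling. Between C2 ceramide on day 4 and DMSO on day 3, 3 were higher (Cyp26c1, Hoxb1 and Meis2) and 5 lower, or 9.38% and 15.6%, against 11.2% and 9.39%. Their median log2 ratio was -0.17, 0.22 and 0.03 in these comparisons. Nr2f2, Ttr, Dhrs9 and Cyp26c1 had at most 14 counts in any library. Cyp26c1 had 7 counts with C2 ceramide, 12 on DMSO day 4 and 0 on DMSO day 3. Its calls over day 3 were against a TPM of 0 set to 0.001.

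Of the genes for uptake and storage, Rbp4, the retinol carrier secreted into blood, had 1.85 TPM in C2 ceramide EBs, 11.4 TPM in DMSO EBs on day 4 and 1.98 TPM in DMSO EBs on day 3. It was high in the DMSO day 4 library alone, with a log2 ratio of -2.63 (-3.16 to -2.13) for C2 ceramide over DMSO at day 4. Rbp4 and Ttr also stand in the list of visceral endoderm markers, and Hoxb1 in that of neuroectoderm markers. Rbp7, a cellular retinol-binding protein, was high on DMSO day 3, with 1.86 TPM in C2 ceramide EBs, 2.21 TPM in DMSO EBs on day 4 and 9.74 TPM in DMSO EBs on day 3.

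Among the enzymes of the retinol and retinal step, 8 of 15 passed the filter on counts. Rdh11, a retinal reductase, had 12.0 TPM in C2 ceramide EBs, 32.0 TPM in DMSO EBs on day 4 and 27.9 TPM in DMSO EBs on day 3, so that the C2 ceramide library was the low one. Its log2 ratio was -1.42 (-1.53 to -1.31) for C2 ceramide over DMSO at day 4. Adh5, a widely expressed alcohol dehydrogenase, was the most abundant of them and was alike in all 3, with 377, 379 and 367 TPM.

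**Figure D5:**
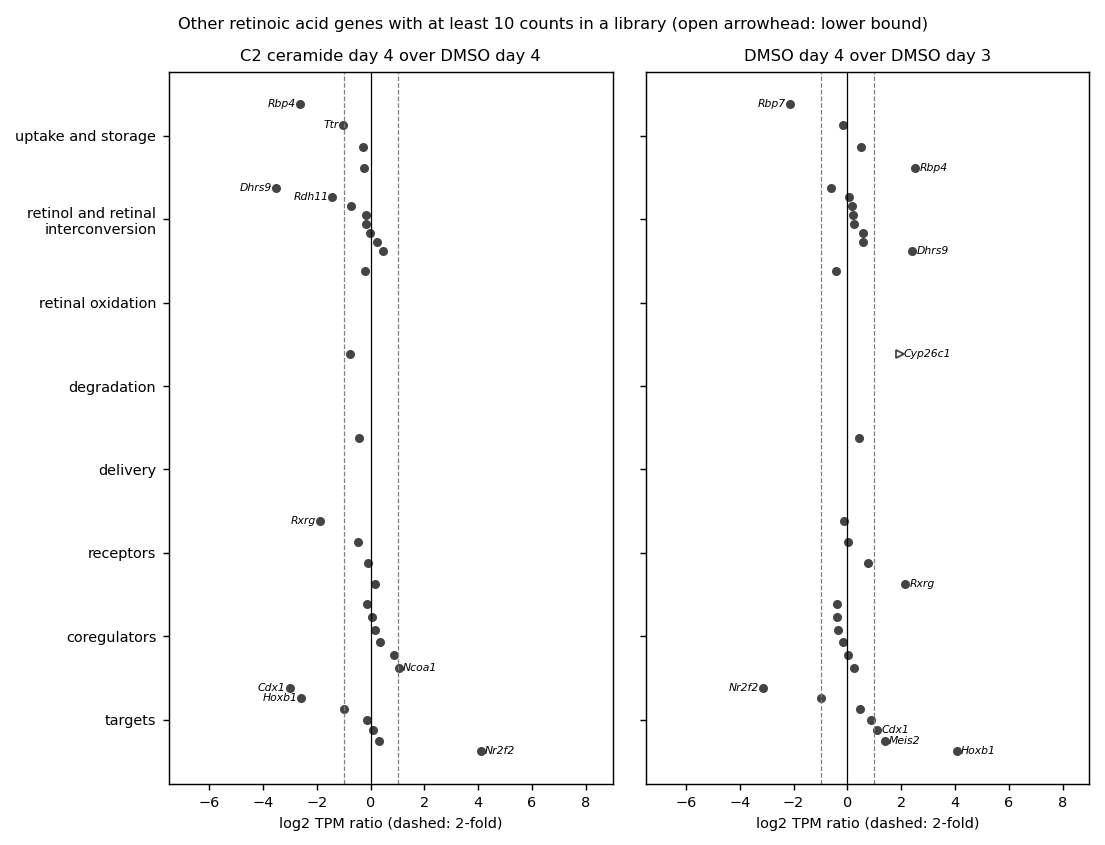
Log2 TPM ratios (x axis) of the 32 further RA genes with at least 10 counts in a library, by role (y axis), for C2 ceramide day 4 over DMSO day 4 (left) and DMSO day 4 over DMSO day 3 (right), 1 library each; genes past 2-fold are named. On the left 7 genes lie below and 2 above the dashed lines, and on the right 2 lie below and 7 above.

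A further group was of genes known as RA targets. Of 14, 7 passed the filter, and C2 ceramide EBs had 1 higher (14.3%, against 9.97% of all genes) and 2 lower (28.6%, against 12.3%) than DMSO EBs on day 4. The higher one was Nr2f2, with 14 counts against 4. Hoxb1, a hindbrain and posterior Hox gene with RA response elements, had 0.863 TPM in C2 ceramide EBs, 5.17 TPM in DMSO EBs on day 4 and 0.310 TPM in DMSO EBs on day 3, a log2 ratio of -2.58 (-3.05 to -2.14) on day 4. Cdx1, a caudal homeobox gene, had 0.248, 2.00 and 0.929 TPM. Meis2, a homeobox cofactor, was alike in both day 4 libraries, with 7.63 TPM in C2 ceramide EBs and 7.13 TPM in DMSO EBs, against 2.70 TPM on day 3, the pattern seen for Aldh1a2.

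The 6 coregulators of the receptors all passed the filter, and 5 of them differed by less than 2-fold between C2 ceramide and DMSO on day 4. The exception was Ncoa1, a coactivator, with 4.96 TPM in C2 ceramide EBs, 2.38 TPM in DMSO EBs on day 4 and 3.08 TPM in DMSO EBs on day 3. Its log2 ratio was 1.06 (0.87 to 1.24), with an interval on both sides of 2-fold. With counts scaled by CPM, TMM or DESeq2 factors it no longer passed 2-fold. Ncor1, a corepressor and the most abundant of the 6, had 72.4, 56.6 and 74.1 TPM.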

How the data were processed

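The 3 RNA-seq libraries of mouse EBs, each a condition of its own, were grouped by the sample labels. The authors amplified cDNA with SMART-Seq v4, sequenced Nextera XT libraries on an Illumina NovaSeq instrument and used DRAGEN with GRCm38 and the GENCODE M25 annotation. The authors deposited levels in TPM and estimated counts, which need not be whole, for each gene and transcript. Whether the counting used strand is not given in the sources used here.

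TPM ratios were computed with Python 3.11.15, NumPy 2.4.6 and pandas 2.3.3, and intervals with SciPy 1.17.1, as exact conditional (Clopper-Pearson) 95% intervals of the rounded counts, scaled by library totals and then moved to be centred on the TPM ratio in the same proportion. Each level's interval is the exact Poisson interval of its counts. A TPM of 0 was set to 0.001 for calls, and a fold against 0 counts was given against 3 counts in that library, without the counting error of the other level. Genes below 10 counts in all libraries were left out, and ranks were taken among genes with at least 10 TPM in either library. Summed TPM gave the paralog shares. Promoter windows came from RefSeq. The ratio intervals, before the move to the TPM ratio, and 2-fold calls of count ratios were tested on simulated Poisson counts. Figures were drawn with Matplotlib 3.10.9. All 9 genes were named, further RA genes with at least 50 counts in a library were named with values, and those with fewer only where a count of calls or a paralog family lists them, as were the 3 genes nearest to Cyp26a1, Crabp1 and Crabp2 and transcripts with at least 10% of a gene's TPM. Some further RA genes are not reported here. The genes and lists were chosen with earlier results of these data known. Alternatives were CPM, TMM factors from edgeR 4.0.16 or size factors from DESeq2 1.42.0 on rounded counts, other pseudocounts, filters and thresholds, and coding transcripts only.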

Additional observations from a re-analysis of the deposited data

How the results depend on the processing

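Of 84 alternative counts of called genes, among the 9 or the further RA genes, 72 stayed within 1.5 times the count given. That measure compares the numbers of genes and not which genes were called. Rbp7, Rdh12 and Bhlhe40, and not Rbp7 and Nr2f2, were lower for DMSO day 4 over day 3 under CPM, TMM and DESeq2 scaling. Of the further RA genes, 1 (Nr2f2) and not 2 were higher in C2 ceramide EBs than in DMSO EBs at day 4 under CPM, under TMM factors and under DESeq2 size factors. With 1 TPM added to each level, 2 of the 9 genes were higher and 0 lower for C2 ceramide day 4 over DMSO day 3, 2 were lower for C2 ceramide over DMSO at day 4, and 2 were higher for DMSO day 4 over day 3. Aldh1a2 and Rarb lost their calls with 1 TPM added, and Stra6 its calls as well. With 0.1 TPM added, Rarb was no longer lower between the treatments at day 4, and 0 were lower for C2 ceramide day 4 over DMSO day 3. At 4-fold, 1 was higher (Crabp2) and 1 lower (Cyp26a1) for C2 ceramide over DMSO at day 4, 0 were lower for C2 ceramide day 4 over DMSO day 3, and 0 were lower for DMSO day 4 over day 3. Of 150 alternative log2 ratios of single genes, 141 moved by less than the counting error, and no called ratio changed sign. No paired analysis was possible because each group has 1 library, and leaving out a replicate was not possible for the same reason. The counts limit Rarb, Stra6 and, on DMSO day 3, Aldh1a2, and the precision between cultures is unknown for every gene.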
